A study of Mus musculus with 3 samples.

Results

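The genes described here are 98 mouse genes of the actin cytoskeleton, measured by 209 of the 34958 probe sets that the array's annotation ties to a single gene (45101 probe sets and 18194 such genes in all). They were chosen by symbol: the numbered myosin heavy chains (Myo, Myh) and light chains (Myl), the Arpc subunits of the Arp2/3 complex, alpha-actinins, coronins, tropomyosins, tropomodulins, Ablim proteins, fascins, filamins, capping protein subunits and diaphanous formins, together with Capg, Gsn, Ahnak, Vasp, Evl, Was, Wipf1, Lcp1, Pls3, Cfl1, Pfn1, Vcl and Tln1. This choice was made with earlier results of these data known. Total RNA came from 3 subsets of dendritic cells (DC) of the spleen, plasmacytoid DC (pDC), CD11b+ conventional DC (cDC) and CD8+ cDC. The mice were naive C57BL/6 females, 6 to 8 weeks old. Spleen cells were depleted of T and B cells on magnetic beads and sorted by flow cytometry, and RNA was pooled over 5 to 8 mice for each subset. Each subset was hybridised to 1 Affymetrix array, so there was no spread between samples and no test between subsets could be run, and cell type, pool, sort and array cannot be told apart.

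Actin filaments are built from monomers that profilin and cofilin recycle. The Arp2/3 complex branches them, formins and Ena/VASP proteins lengthen them, capping proteins end them, and plastins, fascins, alpha-actinins and filamins bundle or cross-link them. Tropomyosins coat the filaments, and myosins pull on them or carry cargo and membrane along them. In dendritic cells this machinery is known for shaping dendrites and podosomes, for migration, and for the contact with T cells.

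A gene's value is its deposited intensity, called its signal, at its brightest probe set, judged by the average of log2 signals across the 3 arrays. The background level was 111, the 95th percentile of 87 probe sets for smell, taste, vomeronasal and trace amine receptors on the array where it was highest. Lower values were set to it before log2 was taken. A difference was called where it reached 2-fold and the brighter array lay above background, and where the dimmer array lay at background the fold is written as "at least". Signals of different genes are not compared, since each probe set has its own brightness. In such bulk samples, fewer cells carrying a transcript and less of it per cell cannot be told apart.

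Marker genes went with the array labels. All 11 matched pDC markers were called higher on the pDC array than on either other array. Of 9 CD11b+ cDC markers, 8 were higher in CD11b+ than in CD8+ cDC, and 8 of 9 CD8+ cDC markers the other way. Against pDC, 7 of the 9 CD11b+ cDC markers were higher in CD11b+ cDC and 1, Cd209a, was 2.49-fold lower. All 9 CD8+ cDC markers were higher in CD8+ cDC than in pDC. The marker lists were chosen with earlier results of these data known, so they are no independent check of the labels. The T cell receptor complex genes Cd3d, Cd3e and Cd3g lay at background on every array, and the T cell markers summed to 660.6, 3151 and 756 (1 of 6 above background, Cd5). Macrophage and monocyte markers summed to signals of 43082, 225930.0 and 99531 in pDC, CD11b+ cDC and CD8+ cDC (9 of 9 above background on each), neutrophil markers to 2735, 17215 and 1445 (7, 7 and 6 of 8), and platelet markers to 831, 3843 and 1250 (3 of 7 on each). Smooth muscle and stromal markers summed to 13491, 2018 and 1518 (3, 3 and 2 of 11 above background). Of the pDC sum, 11542 came from the endothelial cadherin gene Cdh5. The smooth muscle actin gene Acta2 gave 512, 526 and 523, and Pecam1 gave 864, 823 and 351.5. Tagln, Cnn1, Col1a1 and Des lay at background throughout. The 3' over 5' signal ratio of the Actb control probe sets was 5.71, 2.91 and 4.08, and that of Gapdh 16.2, 9.68 and 17.6. Both ratios were lowest on the CD11b+ cDC array, and their bearing on the differences between arrays was not tested. Scaling the arrays on 9 hybridization spike-in probe sets moved the median log2 difference of all genes from 0.01 to -0.33 for pDC minus CD11b+ cDC, from 0.00 to 0.66 for pDC minus CD8+ cDC and from 0.01 to -0.99 for CD8+ minus CD11b+ cDC. Member calls that this scaling removed are named beside the genes, and no call of a named gene changed sign with it.

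Of the 98 genes, 65 were above background on at least 1 array and 56 on all 3. Past 2-fold in any pair were 43 of the 65 (66.2%), beside 41.3% of all genes. Between pDC and CD11b+ cDC, 64 could be compared and 35 differed (29.3% of all genes did): 24 (37.5%) were lower in pDC, against a background of 14.3% of all genes, and 11 (17.2%) were higher, against 15.0%. Between pDC and CD8+ cDC 32 of 63 differed, beside 30.8% of all genes: 19 (30.2%) were lower in pDC, against 14.8% of all genes, and 13 (20.6%) were higher, against 16.0%. The cDC arrays differed less, with 12 of 63 genes past 2-fold (background 20.1%), 4 of them higher in CD8+ cDC (6.35%, background 9.86%) and 8 lower (12.7%, background 10.3%). Median log2 differences over the compared genes were -0.45, -0.38 and -0.17 in these pairs, beside 0.01, 0.00 and 0.01 over all genes. With spike-in scaling the medians were -0.84, 0.20 and -1.21, so that the sign for pDC minus CD8+ cDC turned, while the distance to the median of all genes was -0.51, -0.46 and -0.22. The comparisons share arrays pairwise and are not independent of each other.

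**Figure D1:**
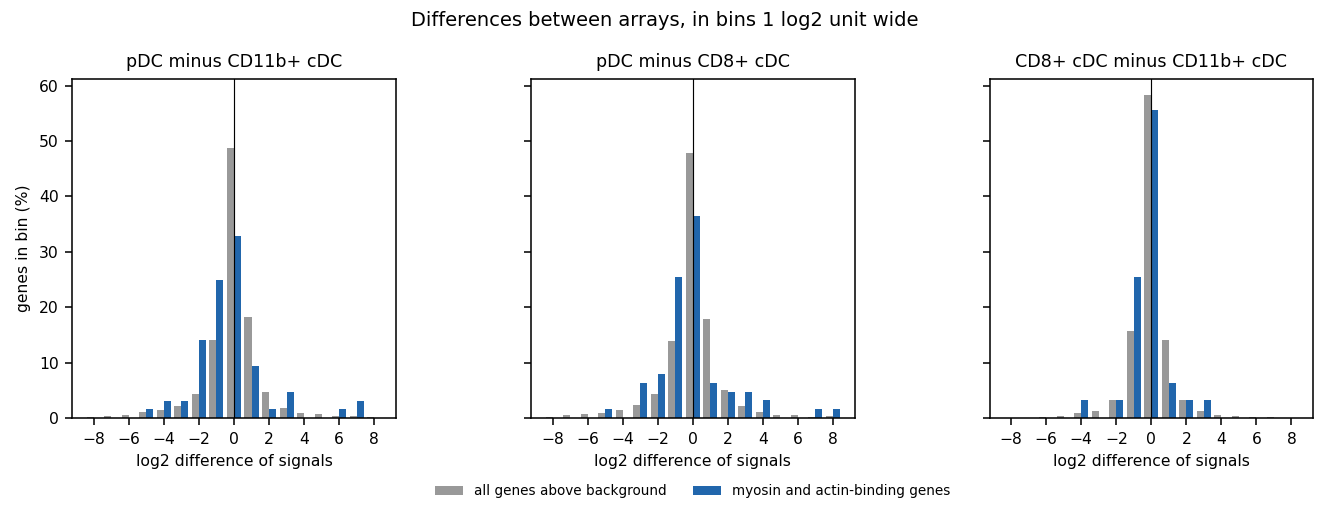
Share of genes (%, vertical axis) in bins of the log2 difference of signals (horizontal axis, bins 1 unit wide, the outermost holding all larger differences) for each pair of arrays, on the deposited scale. Grey bars are all genes above background on either array and blue bars the myosin and actin-binding genes. For pDC minus CD11b+ cDC the bin centred at -2 holds 14.1% of the blue set and 4.26% of all genes, and the bin centred at 0 holds 32.8% and 48.8%; with spike-in scaling the median of the blue set for pDC minus CD8+ cDC is above 0.

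Over all 3 arrays, 9 of the 65 genes (13.8%) stood 2-fold or more above both cDC arrays in pDC, beside a background of 10.4% of genes, and 16 (24.6%) stood 2-fold or more below both, beside 8.56%. At 4-fold, 6 genes stood above both (background 4.28%) and 5 below both (4.38%). The pDC-high genes were Ablim1, Ahnak, Capg, Myh10, Myo10, Myo5a and Pls3, with the dim Myh14 and Myo7a, whose brightest signals of 224 and 397 were under 4 times background. The pDC-low genes were the cross-linkers Actn1, Flna, Fscn1 and Lcp1, the myosins Myo1f and Myo1g, the light chains Myl12a and Myl12b, the tropomyosins Tpm2 and Tpm4, and Arpc2, Coro1c, Diaph3, Evl, Pfn1 and Vasp. With spike-in scaling 6 of the 9 and 8 of the 16 stayed past 2-fold: Ablim1, Ahnak, Capg, Myh10, Myo10 and Pls3 above, and Actn1, Diaph3, Evl, Flna, Fscn1, Myo1f, Myo1g and Tpm2 below. With the 99th percentile (412) as background, the dim Diaph3, Myh14 and Myo7a lost their calls against both cDC arrays, and the differences of Diaph3 were -0.25 and -0.27 on the log2 scale in place of -1.98 and -2.00.

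**Figure D2:**
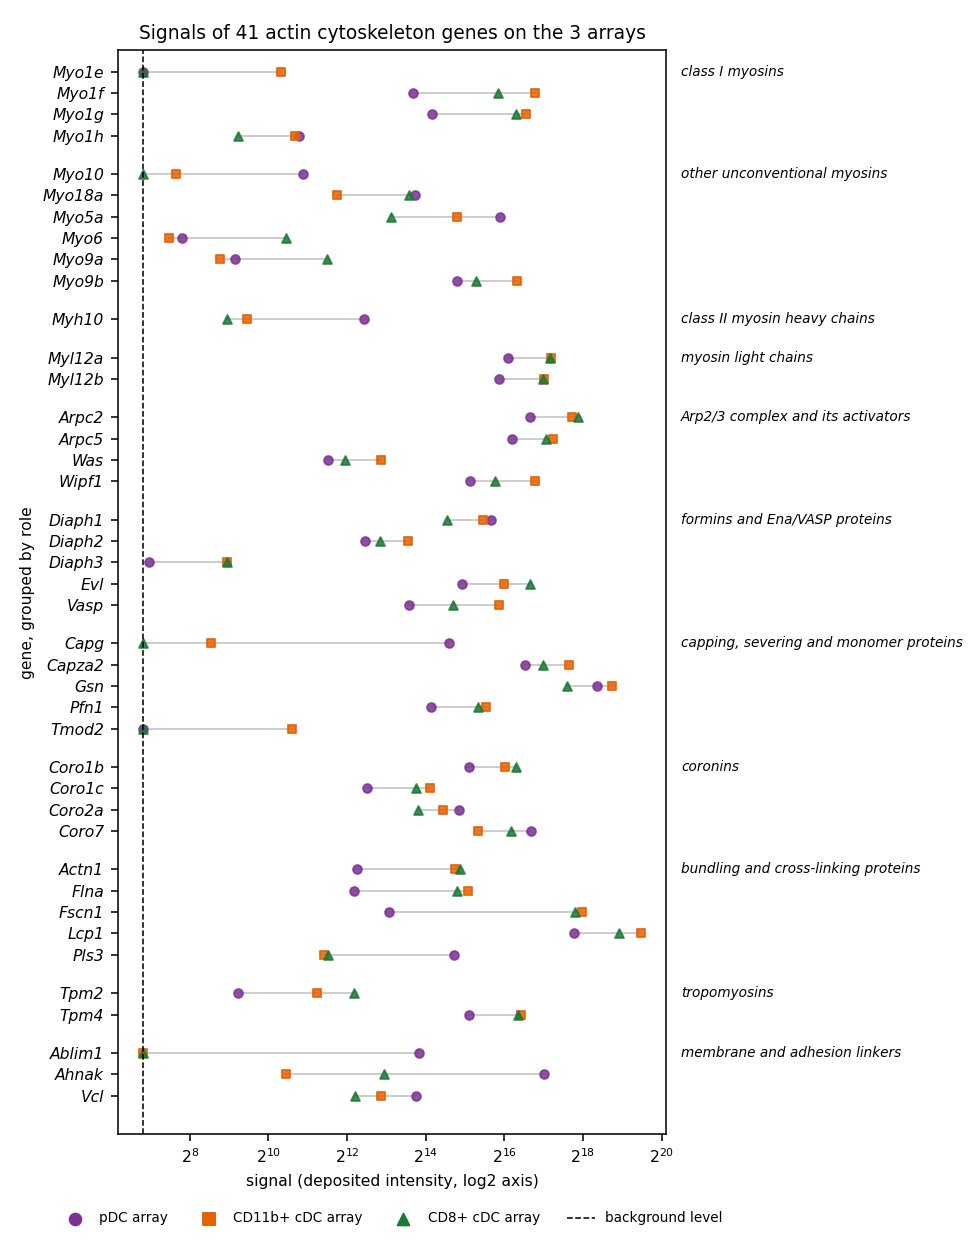
Signal (horizontal log2 axis, deposited intensity) of the 41 genes that differed 2-fold or more in any pair and reached 4 times background, grouped by role, with 1 point per array and values below background drawn at the dashed background line. Capg, Ablim1 and Ahnak have the pDC point far to the right of both cDC points, while Fscn1, Flna and Actn1 have it to the left.

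Capg, Ablim1 and Ahnak gave the largest differences in favour of pDC among the measured genes. Their groups differed: of the capping, severing and monomer genes 1 of 10 was higher and 3 lower in pDC than in CD11b+ cDC (15.0% and 14.3% of all genes), and 1 of 9 higher and 1 lower than in CD8+ cDC (16.0% and 14.8%). Of the 4 measured membrane and adhesion linker genes, 2 were higher in pDC than in CD11b+ cDC (15.0% of all genes) and 3 than in CD8+ cDC (16.0%). In either pair 0 were lower in pDC (14.3% and 14.8%). Capg, a gelsolin relative that caps filament ends without cutting them, gave 24722 in pDC, against 370.1 in CD11b+ and 53.6, below background, in CD8+ cDC. It was thus 66.8-fold higher in pDC than in CD11b+ cDC, at least 222-fold higher than in CD8+ cDC, and at least 3.33-fold higher in CD11b+ than in CD8+ cDC. With the 99th percentile as background, its CD11b+ cDC signal was below the level too, the call between the cDC arrays was lost, and the lower bound over CD8+ cDC was 5.91 on the log2 scale in place of 7.80. Its other probe set stayed below background everywhere. Ablim1, an actin-binding LIM protein, gave 14550.4 in pDC and lay below background on both cDC arrays (99.5 and 58.3), a difference of at least 131-fold, and its second measured probe set gave 935, 75.9 and 76.7, or at least 8.41-fold. Ahnak, a very large scaffold protein beneath the plasma membrane, gave 132014 in pDC, against 1401 in CD11b+ and 7830.0 in CD8+ cDC, which is 94.3-fold and 16.9-fold higher in pDC. Its other measured probe sets were far dimmer: they read 244 and 213 in pDC and lay below background in both cDC subsets, with lower bounds of 2.19-fold and 1.91-fold. The direction was the same at each Ahnak probe set above background, but the size rests on 1 of them.

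Capg and Ahnak are shown with Fscn1 and Flna, as genes far apart in opposite directions, by the 250 bases before their annotated starts (RefSeq, assembly GRCm38.p6, read 5′ to 3′ on the strand of the gene). The stretches lie at chr6:72549397-72549646, plus strand, for Capg, chr19:8989034-8989283, plus strand, for Ahnak, chr5:142960105-142960354, plus strand, for Fscn1 and chrX:74246535-74246784, minus strand, for Flna. Capitals mark the E-box CAGGTG, a letter pattern that E proteins such as the pDC factor Tcf4 can bind, searched on both strands.
Capg: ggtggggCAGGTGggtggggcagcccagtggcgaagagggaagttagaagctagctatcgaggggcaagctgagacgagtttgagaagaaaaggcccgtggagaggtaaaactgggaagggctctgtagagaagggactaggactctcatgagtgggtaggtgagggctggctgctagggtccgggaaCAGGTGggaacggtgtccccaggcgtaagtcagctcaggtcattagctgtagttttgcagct
Ahnak: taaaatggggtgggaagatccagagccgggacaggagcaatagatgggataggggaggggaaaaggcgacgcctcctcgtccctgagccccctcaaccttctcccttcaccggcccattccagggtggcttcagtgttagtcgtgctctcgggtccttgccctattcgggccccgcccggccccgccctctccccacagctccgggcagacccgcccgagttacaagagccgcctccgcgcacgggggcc
Fscn1: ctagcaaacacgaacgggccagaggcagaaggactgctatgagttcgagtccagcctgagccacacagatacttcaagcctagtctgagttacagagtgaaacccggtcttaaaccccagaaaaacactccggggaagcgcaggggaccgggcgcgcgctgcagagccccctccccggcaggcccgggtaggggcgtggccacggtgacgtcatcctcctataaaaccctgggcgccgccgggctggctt
Flna: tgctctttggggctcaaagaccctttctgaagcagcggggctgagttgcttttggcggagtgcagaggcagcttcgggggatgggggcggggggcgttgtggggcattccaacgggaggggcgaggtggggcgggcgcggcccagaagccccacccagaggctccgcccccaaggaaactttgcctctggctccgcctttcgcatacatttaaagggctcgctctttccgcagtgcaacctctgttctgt
Capg held 2 such matches, at 243 and 62 bases before the start, and the other 3 stretches held 0. Over the windows of the table (250 before to 50 after a start), 18.3% of the 115 windows of 86 matched genes held the E-box, beside 20.2% of all 32851 windows. Among genes 2-fold apart from both cDC arrays, it was also found for Ablim1 and Myh10, high in pDC, and for Arpc2 and Myl12b, low in pDC. The match is a description of letters and not of binding.

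Other genes of this kind were split. Vcl, encoding vinculin, which links talin to actin at adhesions, gave 13801 in pDC, against 7398 in CD11b+ and 4670.0 in CD8+ cDC, and was 2.96-fold higher in pDC than in CD8+ cDC and 1.87-fold higher than in CD11b+ cDC. Tln1, encoding talin, which activates integrins, gave 45038, 69884 and 50951 and reached 2-fold in no pair. Gsn, encoding the filament-severing gelsolin, gave 334669.9, 438208 and 198397, and was 2.21-fold higher in CD11b+ than in CD8+ cDC. All 4 measured Gsn probe sets were brightest on the CD11b+ cDC array. The barbed-end capping protein is a dimer of an alpha and a beta subunit. Its alpha subunit gene Capza2 gave 93661, 206549 and 129580.4 and was 2.21-fold lower in pDC than in CD11b+ cDC. A second Capza2 probe set was 3.46-fold and 2.33-fold lower in pDC than in CD11b+ and CD8+ cDC. Capza1 and the beta subunit gene Capzb stayed within 1.35-fold and 1.68-fold in each pair at their brightest probe sets. Another Capza1 probe set was 1.99-fold lower in pDC than in CD11b+ cDC. A dim Capzb probe set was 2.30-fold lower in pDC than in CD11b+ cDC, and a brighter one 2.04-fold lower than in CD8+ cDC. Among monomer proteins, Pfn1, encoding profilin, gave 17981 in pDC, against 47307 in CD11b+ and 41479.7 in CD8+ cDC, which is 2.63-fold and 2.31-fold lower in pDC. The second of these calls was lost with spike-in scaling. Cfl1, encoding cofilin, which severs old filaments, gave 354016, 502402 and 522628 and differed at most 1.48-fold, while its far dimmer second probe set was 3.29-fold lower in pDC than in CD11b+ cDC.

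Genes of filament bundlers and cross-linkers were lower in pDC for 4 of 6 measured against either cDC array (14.3% and 14.8% of all genes), and 1 was higher (15.0% and 16.0%). Fscn1, encoding fascin, the bundler of filopodia and of the dendrites of mature DC, gave 8545 in pDC, against 257983 in CD11b+ and 228649 in CD8+ cDC. It was 30.2-fold and 26.8-fold lower in pDC at this probe set, and 6.32-fold and 3.76-fold lower at a second one, while 2 more stayed below background. Flna, encoding filamin A, which cross-links filaments into networks beneath the membrane, gave 4609, 34269 and 28462 (7.44-fold and 6.18-fold lower in pDC). Actn1, encoding an alpha-actinin of adhesions, gave 4907, 27682 and 30244 (5.64-fold and 6.16-fold lower), and its dim second probe set fell just short of 2-fold. Actn4, its non-muscle relative, gave 10957, 18552 and 14844 and stayed within 1.69-fold.

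The plastin genes lay in opposite order. Lcp1, encoding the leukocyte plastin, gave 222805 in pDC, against 735652 in CD11b+ and 493932 in CD8+ cDC, 3.30-fold and 2.22-fold lower in pDC, with 5.82-fold and 3.32-fold at its second probe set. Pls3, encoding the plastin of non-blood tissues, gave 26868 in pDC, against 2715 in CD11b+ and 2913 in CD8+ cDC, 9.90-fold and 9.22-fold higher in pDC. Pls3 has 1 probe set here. With spike-in scaling the Lcp1 call against CD8+ cDC was lost and the Pls3 calls were kept.

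Class I myosins, single-headed motors that tether membrane to actin, were lower in pDC than in CD11b+ cDC for 3 of 5 measured genes (14.3% of all genes) and than in CD8+ cDC for 2 of 4 (14.8%), while 0 and 1 were higher (15.0% and 16.0%). Myo1f, a myosin of leukocytes, gave 13167 in pDC, against 113304 in CD11b+ and 58250.1 in CD8+ cDC, 8.61-fold and 4.42-fold lower in pDC, and its other 2 probe sets gave 9.78-fold and 9.81-fold, and 4.35-fold and 4.95-fold. Myo1g, also of blood cells, gave 18353, 96371 and 80935 (5.25-fold and 4.41-fold lower in pDC). Myo1e was measured on 1 array only: its signal of 1275 in CD11b+ cDC compared with 53.9 and 58.6, below background, in pDC and CD8+ cDC, at least 11.5-fold, and its 3 other probe sets were below background. Against the group, Myo1h gave 1768 in pDC, against 1647 in CD11b+ and 602.5 in CD8+ cDC. The broadly expressed Myo1c gave 19625, 13282 and 14484 and reached 2-fold in no pair, and Myo1a and Myo1d lay at background throughout.

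The other unconventional myosins, many of them cargo motors, were split, with 4 of 8 measured genes higher and 1 lower in pDC than in CD11b+ cDC (15.0% and 14.3% of all genes), and 3 higher and 2 lower than in CD8+ cDC (16.0% and 14.8%). Myo5a, a processive carrier of vesicles and melanosomes, gave 61151 in pDC, against 28389 in CD11b+ and 8874 in CD8+ cDC. Its fold over CD8+ cDC was 6.89, with 4.72 and 6.93 at 2 more probe sets, and its fold over CD11b+ cDC was 2.15, a call that those probe sets (1.89 and 1.98) and spike-in scaling did not repeat. Myo10, which moves to the tips of filopodia, gave 1892 in pDC, against 199.9 in CD11b+ and 111 (just below background) in CD8+ cDC, 9.46-fold and at least 17.0-fold higher in pDC. Only 1 of the 4 Myo10 probe sets was above background on any array. Myo18a, a myosin of the Golgi and cell cortex, was, with Ahnak, a gene lowest in CD11b+ cDC: 13536 in pDC, against 3413 in CD11b+ and 12182 in CD8+ cDC, 3.97-fold and 3.57-fold apart. Spike-in scaling removed the second of these calls.

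A pair of these myosin genes was brightest on the CD8+ cDC array under either scaling. Myo6, the motor that walks toward the pointed end of filaments, gave 221 in pDC, against 176 in CD11b+ and 1402 in CD8+ cDC, 6.33-fold and 7.96-fold higher in CD8+ cDC, although its dimmer second probe set read 101, 97.0 and 188. Myo9a, an unconventional myosin, gave 564, 436 and 2883 (5.11-fold and 6.61-fold higher in CD8+ cDC), with 2.62-fold and 2.92-fold at a second probe set. Its relative Myo9b had the opposite order among cDC, with 28378 in pDC, against 81260.1 in CD11b+ and 40089.5 in CD8+ cDC, or 2.86-fold and 2.03-fold higher in CD11b+ cDC. Its dimmer probe sets did not reach 2-fold.

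Class II myosins form the contractile filaments, and of their non-muscle heavy chains Myh10 and Myh9 differed in pattern. Myh10 gave 5485 in pDC, against 695 in CD11b+ and 494 in CD8+ cDC, 7.89-fold and 11.1-fold higher in pDC. Its other probe set lay below background on every array. Myh9, the main heavy chain of blood cells, gave 24243, 34096 and 45699 and stayed under 2-fold at its brightest probe set, while 3 of its 4 other probe sets were 2.17-fold to 2.66-fold lower in pDC than in CD11b+ cDC. Of the regulatory light chains that switch these motors on when phosphorylated, Myl12a gave 69907 in pDC, against 150309 in CD11b+ and 145838 in CD8+ cDC, and Myl12b gave 60106, 131348 and 130436. Both were lower in pDC, by 2.15-fold and 2.19-fold against CD11b+ cDC and by 2.09-fold and 2.17-fold against CD8+ cDC. The last 2 calls were lost with spike-in scaling, and since these neighbouring genes are close copies, their probe sets may share signal. The essential light chain gene Myl6 gave 1355, 1290.4 and 2374 at its 1 single-gene probe set.

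Of the Arp2/3 complex and its activators, which start new filaments, all 7 genes were measured. Lower in pDC than in CD11b+ cDC were 4, beside 14.3% of all genes, and 1 was lower than in CD8+ cDC, a share near the background of 14.8%. Arpc2, a core subunit, gave 103855 in pDC, against 215331 in CD11b+ and 240875 in CD8+ cDC, 2.07-fold and 2.32-fold lower in pDC, with 1.25-fold and 3.93-fold at a dim second probe set. The call of Arpc2 against CD8+ cDC was lost with spike-in scaling. Arpc5 gave 75538, 153604 and 136385, 2.03-fold lower than in CD11b+ cDC and 1.81-fold lower than in CD8+ cDC. Was, encoding the Arp2/3 activator lost in Wiskott-Aldrich syndrome, gave 2930.3, 7502 and 3970, and Wipf1, encoding the partner that stabilises it, gave 35514, 111678 and 55841. Both had their highest signal in CD11b+ cDC, 2.56-fold and 3.14-fold above pDC, and 1.89-fold and 2.00-fold above CD8+ cDC, where Wipf1 fell short of the rule by less than rounding shows. Arpc1a, Arpc4 and Arpc5l stayed within 1.38-fold in each pair. Among the elongation factors, Vasp gave 12295 in pDC, against 59838 in CD11b+ and 26475 in CD8+ cDC, 4.87-fold and 2.15-fold lower in pDC (the second call lost with spike-in scaling). Its relative Evl peaked on the other cDC array, with 31274, 65357 and 103828, 2.09-fold and 3.32-fold lower in pDC. All 4 Evl probe sets had this order. Diaph3, a formin used in cell division, gave 124, 489 and 496, Diaph2 gave 5639.8, 12022 and 7336, and Diaph1, a formin, gave 52065, 44950.1 and 23823, 2.19-fold higher in pDC than in CD8+ cDC at that probe set and under 2-fold at its others.

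**Figure D3:**
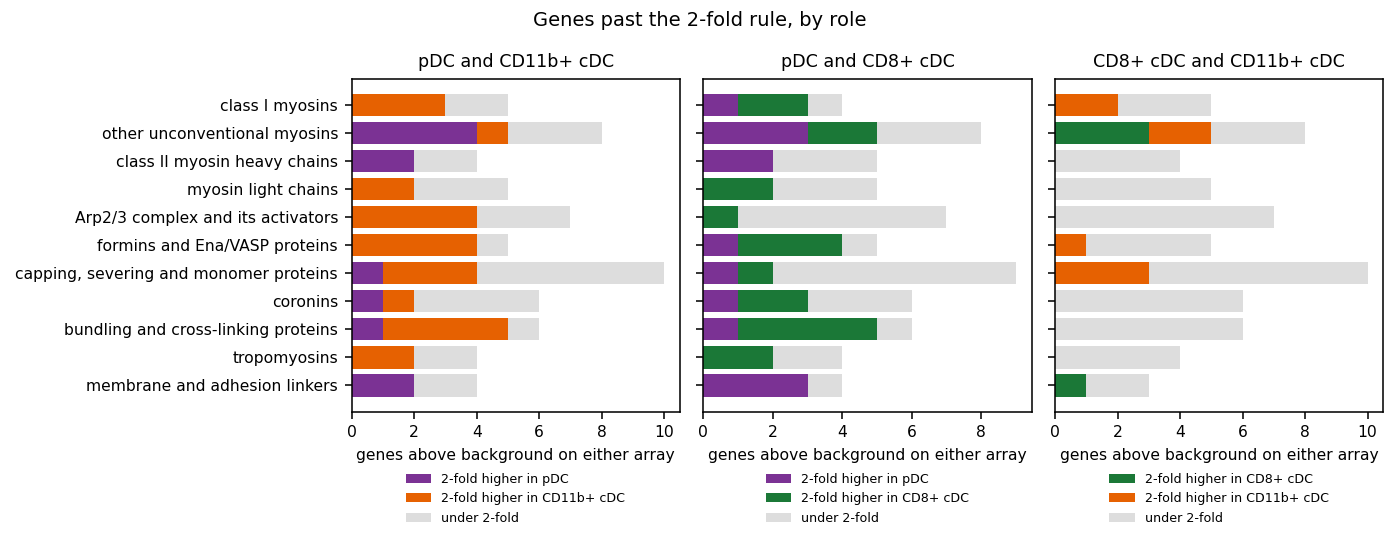
Number of genes (horizontal axis) in each role that were 2-fold or more higher on one array of a pair or under 2-fold apart, among genes above background on either array, on the deposited scale. Class I myosins, light chains, Arp2/3 genes, formins and Ena/VASP proteins, and tropomyosins have no gene higher in pDC than in CD11b+ cDC. Class II myosin heavy chains and membrane and adhesion linkers have no gene lower in pDC in either pair. Spike-in scaling removed 9 of the 19 calls of genes higher in CD8+ cDC than in pDC.

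Coronins, which remodel Arp2/3 branches, and tropomyosins, which set which motors reach a filament, also divided by gene. Coro1a, the leukocyte coronin, gave 329979 in pDC, against 459967 in CD11b+ and 357087 in CD8+ cDC and stayed within 1.39-fold. Coro1b gave 34931, 66839 and 80829 and Coro1c 5806, 17775 and 13888, both lower in pDC than in CD8+ cDC (2.31-fold and 2.39-fold, lost with spike-in scaling). Coro1c was also 3.06-fold lower in pDC than in CD11b+ cDC, a call that spike-in scaling kept. Its dim other probe sets gave 3.34-fold and 1.12-fold in that pair. Coro7, a coronin of the Golgi, gave 104259, 41406 and 73867.5 and was 2.52-fold higher in pDC than in CD11b+ cDC, a call that 4 of its 5 other probe sets shared and that spike-in scaling removed. Coro2a gave 29551, 22311 and 14309.5, 2.07-fold higher in pDC than in CD8+ cDC. Tpm4 gave 35297, 88058 and 83825, 2.49-fold and 2.37-fold lower in pDC (the second call lost with spike-in scaling). Tpm2, a tropomyosin also found in muscle, gave 604 in pDC, against 2392 in CD11b+ and 4665 in CD8+ cDC, 3.96-fold and 7.73-fold lower in pDC, with 4.38-fold and 9.31-fold at a second probe set. Tpm3 and Tpm1 differed at most 1.50-fold and 1.35-fold at their brightest probe sets, but dimmer ones were lower in pDC than in CD11b+ cDC by up to 3.77-fold and by 2.69-fold.

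Set against both other arrays, 4 of the 65 genes were 2-fold higher in CD11b+ cDC (6.15%, background 5.02%: Myo1e, Myo9b, Tmod2 and Vasp) and 2 lower (background 2.99%: Ahnak and Myo18a). In CD8+ cDC 2 were higher (3.08%, background 6.02%: Myo6 and Myo9a) and 3 lower (background 4.34%: Capg, Myo1h and Myo5a). With spike-in scaling, 23 genes stood above both others in CD11b+ cDC, including the 4 named and Fscn1 and Flna, and 1 (Ahnak) below. In CD8+ cDC the same 2 stood above and 10 below, including the 3 named. That scaling put 49.5% of all genes 2-fold lower in CD8+ than in CD11b+ cDC. Directly between the cDC arrays, the genes higher in CD8+ cDC were Ahnak (5.59-fold), Myo6, Myo9a and Myo18a. Higher in CD11b+ cDC were Myo1e, Tmod2, Capg (lost with the 99th percentile as background), Myo5a (3.20-fold), Myo1h (2.73-fold), Vasp (2.26-fold), Gsn and Myo9b. Tmod2, encoding a tropomodulin that caps pointed ends and is best known from neurons, gave 1542 in CD11b+ cDC and 71.3 and 77.2, below background, in pDC and CD8+ cDC, at least 13.9-fold, with lower bounds of 3.08-fold and 1.64-fold at its other measured probe sets. The widely expressed Tmod3 gave 37956, 44436 and 27027.5 and reached 2-fold in no pair. Macrophage, neutrophil and platelet markers were also brightest on the CD11b+ cDC array (sums given above), and their part in the signals of Myo1e and Tmod2 was not tested. The count between cDC arrays moved most with the scaling: 40 of 61 genes were lower in CD8+ cDC with the spike-ins, when 49.5% of all genes were.

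Muscle genes of these families were mostly not above background. Of 33 genes above background on no array, 7 were among the 12 Myh genes, which include the skeletal chains Myh1, Myh2 and Myh4 and the cardiac chain Myh7. The smooth muscle light chain gene Myl9, the cardiac light chains Myl2 and Myl7, the muscle alpha-actinins Actn2 and Actn3, and Flnc lay at background too. So did the fascin genes Fscn2 and Fscn3, which are not counted here as muscle genes. Among all 98 genes, of muscle or not, Myh6, Myh11, Myl1, Myo15 and Coro6 passed the level but stayed under 2 times background on every array. The muscle gene Myl3 gave 555.0, 618 and 632, nearly equal in the 3 subsets.

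Of the 22 genes in the plot of probe sets, none had a probe set 2-fold apart against a call of the brightest one. Over the called genes with another measured probe set, at least 1 such probe set passed the rule in the same direction for 13 of 19 genes for pDC and CD11b+ cDC, for 10 of 15 for pDC and CD8+ cDC and for 4 of 6 between the cDC arrays. Log2 differences of the brightest and next probe sets differed with an SD of 1.38 over 34 of the genes for pDC minus CD11b+ cDC, beside 0.86 over 4833 genes of the array. The corresponding SDs were 1.19 and 0.89 for pDC minus CD8+ cDC and 0.79 and 0.74 between the cDC arrays. Sizes near 2-fold therefore lie within this spread, whereas those of Capg, Ablim1, Ahnak and Fscn1, among others, at the brightest probe set exceed it. The spread describes how probe sets disagree on the same arrays and does not measure variation between samples. Ahnak and Ablim1, whose own probe sets lie far apart, are part of it, and Capg has 1 measured probe set.

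**Figure D4:**
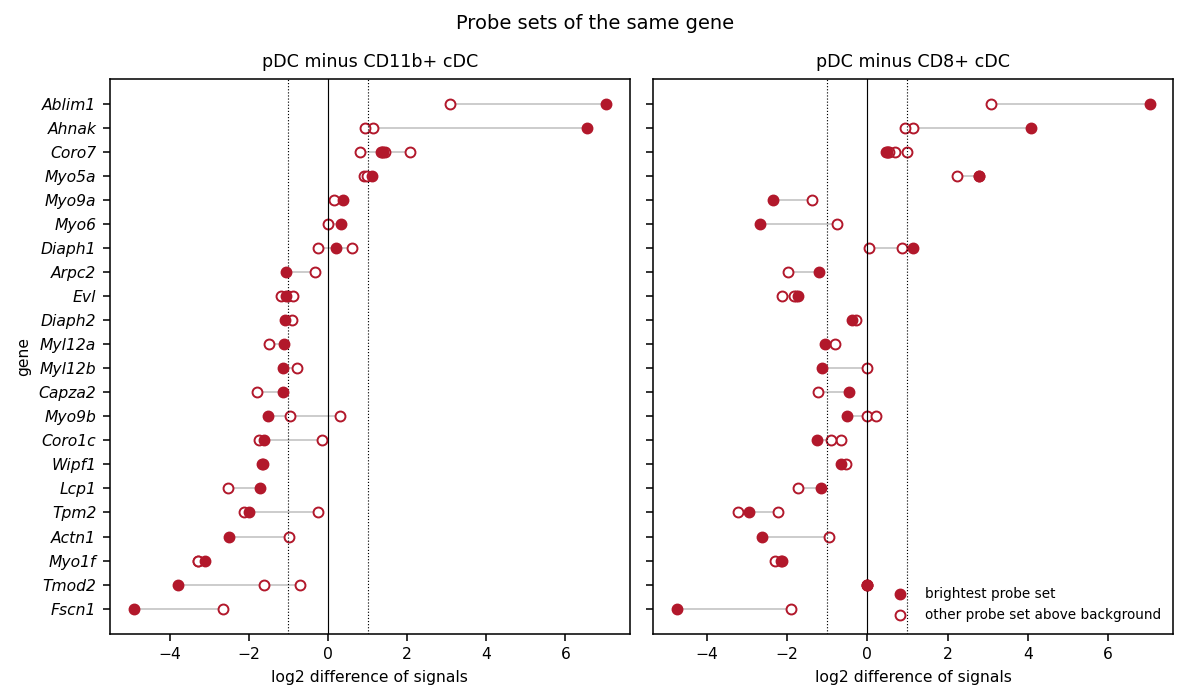
Log2 difference of signals (horizontal axis) at each probe set above background for 22 genes with more than 1 such probe set, on the deposited scale. Filled points are the brightest probe set, open points the others, and dotted lines mark 2-fold; Ahnak and Fscn1 have open points far nearer to 0 than the filled one, while Myo1f, Evl and Coro7 cluster.

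Serum response factor, known for driving actin and myosin genes, binds the CArG box, a pattern of 10 bases with A or T at its 6 inner positions that reads the same way on both strands. It was found in 8 of the 115 windows (6.96%), beside 1.63% of all 32851 windows, and in 5 of the 84 windows of genes above background. Shown are 60 bases of each of these 5 windows, with the CArG box in capitals, at chr14:20929148-20929207, plus strand, for Vcl, chr9:70207290-70207349, plus strand, for Myo1e, chr10:128493025-128493084, minus strand, for Myl6, chr9:110763568-110763627, plus strand, for Myl3 and chr6:113377863-113377922, plus strand, for Arpc4 (RefSeq, GRCm38.p6, 5′ to 3′).
Vcl: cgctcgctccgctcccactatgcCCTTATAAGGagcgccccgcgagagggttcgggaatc
Myo1e: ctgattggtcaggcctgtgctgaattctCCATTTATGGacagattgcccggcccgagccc
Myl6: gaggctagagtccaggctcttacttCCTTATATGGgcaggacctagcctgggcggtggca
Myl3: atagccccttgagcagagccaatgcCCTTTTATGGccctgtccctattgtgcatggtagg
Arpc4: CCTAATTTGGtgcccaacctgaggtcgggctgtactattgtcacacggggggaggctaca
The signals of these 5 genes had no common order: Vcl was brightest in pDC, Myo1e and Arpc4 in CD11b+ cDC and Myl6 and Myl3 in CD8+ cDC, with Arpc4 (22280.0, 29498 and 22502) under 2-fold in each pair, as were Myl6 and Myl3.

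Genes around the same machinery that the symbol rule left out were taken from 4 lists. Between pDC and CD11b+ cDC (background 15.0% higher and 14.3% lower), 7 of 14 measured genes of Dock and Vav exchange factors were lower in pDC and 0 higher, and 5 of 18 genes of cortex and adhesion linkers were lower and 2 higher. Of 10 actin and monomer genes 2 were lower and 0 higher, and of 15 nucleation genes 2 were lower and 2 higher. Between pDC and CD8+ cDC (background 16.0% higher and 14.8% lower), 5 of 14, 6 of 18, 4 of 10 and 1 of 15 genes of these lists were lower in pDC, and 1, 1, 1 and 0 were higher. With spike-in scaling 3, 5, 2 and 0 of the genes lower in pDC than in CD8+ cDC kept their call, and 7, 5, 2 and 2 of those lower than in CD11b+ cDC. Dock5, a Rac exchange factor, gave 20876 in CD11b+ cDC and 30755 in CD8+ cDC and lay below background in pDC, at least 188-fold and at least 277-fold lower (at least 134-fold against CD8+ cDC with spike-in scaling). Eps8, which caps and bundles filaments, was 139-fold and 119-fold lower in pDC and Marcksl1, a membrane-bound actin regulator, 57.2-fold lower than in CD11b+ cDC. Fmnl2, a formin, gave 79868 in pDC, against 5013 in CD11b+ and 88702 in CD8+ cDC, so that CD11b+ cDC was low and the other arrays were 15.9-fold and 17.7-fold higher. The spectrin gene Sptbn1 had the same pattern with 15453, 2571 and 13377 (6.01-fold and 5.20-fold). Iqgap2, a scaffold protein, gave 72025, 8600.1 and 20379.5, and was 8.37-fold and 3.53-fold higher in pDC than in CD11b+ and CD8+ cDC. Dbn1, encoding the side-binding protein drebrin, gave 6772 in CD8+ cDC, 113 in CD11b+ cDC and 70.3, below background, in pDC. The genes of cytoplasmic actin itself gave 367757, 656762 and 659829.5 for Actb and 292053, 583084 and 665817 for Actg1, lowest in pDC, and of the differences from pDC only that of Actg1 against CD8+ cDC passed 2-fold (2.28-fold). With spike-in scaling that difference was 1.45-fold, and those against CD11b+ cDC were 2.33-fold for Actb and 2.61-fold for Actg1. The Actb values are those of its 3' control probe set.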

How the data were processed

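The deposited values are linear intensities, 1 for each probe set on each array. The submitters' processing notes name MAS5 without a version; no source used here describes further scaling, and the sorted values of the arrays are nearly alike. Per the labels' protocols, 20 ng of total RNA per subset was made into biotinylated cRNA.

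Probe sets were named by the platform annotation, and all 98 gene numbers were found in the reference table of assembly GRCm38.p6. Another 6 probe sets that list a member beside other genes were left out. Computations used Python 3.11.15, pandas 2.3.3 and NumPy 2.4.6. A run on simulated data, with shifts larger than 2-fold in bright genes and little noise, checked the coding of the call rule only. It does not measure how reliable the calls are. The genes, lists, roles and rules were chosen with earlier results of these data known. Named genes differ 2-fold in any pair and reach 4 times background on some array; up to 4 uncalled genes with the highest mean signal per role, and up to 3 genes per direction and pair of the further actin lists, were added; part of these lists is not reported here. Of 12 marker lists, those for B, NK and erythroid cells and for cDC in general gave summed signals of 10674, 15871 and 19874, of 733, 1139.7 and 738, of 15704, 17945 and 11900.0, and of 110150.0, 756580.0 and 793130.0 in pDC, CD11b+ and CD8+ cDC. Alternatives were the 99th percentile as background, no background level, a pseudocount, spike-in scaling, other choices of probe set, and 3-fold.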

Additional observations from a re-analysis of the deposited data

How the results depend on the processing

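The count of genes lower in pDC than in CD11b+ cDC lay between 22 and 28 under each alternative except the 3-fold rule. That rule gave 13. The share of all genes lower in pDC changed with the setting too. In the main setting 37.5% of the compared genes were lower, beside 14.3% of all genes. Spike-in scaling, which gave the 28, had 43.75% beside 20.47%. Without a background level the shares were 24.49% and 8.82%, and with the 3-fold rule 20.31% and 9.34%. With the 3-fold rule, which gives fewer calls by construction, 7 genes were higher in pDC than in CD11b+ cDC (10.9%, beside 8.44% of all genes). Against CD8+ cDC, 8 were higher (12.7%, beside 9.56%) and 10 lower in pDC (15.9%, beside 9.63%). Between the cDC arrays, 4 were lower in CD8+ cDC (6.35%, beside 5.55%). With spike-in scaling 7 were higher in pDC than in CD11b+ cDC (10.9%, beside 10.3% of all genes) and 10 were lower in pDC than in CD8+ cDC (16.7%, beside 9.66%). This scaling left 40 lower in CD8+ than in CD11b+ cDC (65.6%, beside 49.5%). Its medians were 0.20 for pDC minus CD8+ cDC, which reversed, and -1.21 for CD8+ minus CD11b+ cDC. Without a background level all 98 genes entered, the silent ones near 0, and the medians were -0.0077 for pDC minus CD11b+ cDC and 0.0057 for CD8+ minus CD11b+ cDC, which also reversed. Pairwise differences of the named genes moved by more than the spread between probe sets in 36 of 120 values with spike-in scaling, all between the cDC arrays, in 13 of 117 with the 99th percentile (412), in 11 of 120 with the median over probe sets, in 5 without a background level, in 2 with the pseudocount, and in 0 without _s_at and _x_at probe sets; no called one changed sign. No paired analysis was possible because each subset has 1 array. The number of arrays limits the precision, and genes near background have bounds only.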
